A study of Mus musculus with 28 samples.

Results

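The transcriptional profile of mouse alveolar epithelium after loss of Yap was read from 9 RNA-seq libraries, the 5 Yap deleted and 4 control columns of 1 deposited count table, out of 28 samples of RNA and open chromatin in the series. The 5 Yap deleted libraries came from animals of the genotype Yapflox/flox SftpcCreert2, in which both copies of Yap1 can be cut by a tamoxifen-dependent Cre recombinase driven by the promoter of Sftpc, the surfactant protein C gene of alveolar type 2 (AT2) cells. The 4 control libraries carry the genotype Yapflox/flox, with floxed Yap1 alleles and no Cre in the label. A status field of the labels reads the same in both groups, so the groups rest on the sample titles and the genotype. The labels give induction at postnatal day 3 and collection at postnatal day 14 for both groups. The cells, labelled AT2, had been depleted of blood, endothelial and some stromal cells with magnetic beads and then selected for EPCAM (CD326), a surface protein of epithelial cells in general. Presence of Cre and loss of Yap cannot be told apart in this design. The labels do not say that each library is its own animal, so p-values measure the spread between these libraries.

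Yap is the transcriptional coactivator at the end of the Hippo pathway: when the Lats kinases are inactive, Yap and its relative Taz (gene Wwtr1) enter the nucleus and act through the Tead DNA-binding proteins. AT2 cells make and secrete surfactant, a lipid and protein film stored in lysosome-related lamellar bodies, and also serve as progenitors of the thin alveolar type 1 (AT1) cells of the gas exchange surface. Yap and Taz are known in mouse lung for their roles in the passage of AT2 cells to the AT1 state, which is why surfactant, AT1, lipid and Hippo genes are given as groups.

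The libraries held 36989531 to 42924739 counts in the Yap deleted group and 31947748 to 35573691 counts in the control group, so depth did not overlap between groups; its part in the results was not tested. Levels are given in CPM, each gene's count as a share of its library's TMM-scaled total. All 30 AT2 markers of the list used were measured in all libraries, at a summed 83181 to 122632 CPM in Yap deleted libraries and 44118 to 143162 CPM in controls, and AT1 markers were present too, at a summed 8438 to 17650 CPM in Yap deleted libraries and 10034 to 26746 CPM in controls. Controls 1 and 2 stood apart. On the first principal component, which held 61.3% of the variance, they lay at 79.0 and 96.7 while the other 7 libraries lay between −40.2 and −8.74. They carried 4137 and 3225 summed CPM of 20 endothelial markers, against 240.1 to 349 CPM in Yap deleted libraries and 338 and 362 CPM in controls 3 and 4. Lymphocyte markers summed to 14.8 to 24.5 CPM in Yap deleted libraries, 107 to 377 CPM in controls 1 and 2 and 15.3 to 30.8 CPM in controls 3 and 4; Emcn, of endothelium, was at 0 in Yap deleted library 3, and up to 10 of the 17 lymphocyte markers in the table were at 0 in a Yap deleted library. Mesenchymal markers were present in every library, at a summed 10552, 25193, 23961, 6029 and 21775 CPM in Yap deleted libraries 1 to 5, against 25527, 30332, 11622 and 7300 CPM in controls 1 to 4. Their median log2 fold change was −0.20 with all controls and 0.55 without controls 1 and 2. Leaving out controls 1 and 2 thus did not level the mesenchymal content of the groups. In bulk RNA, fewer cells of a type and less RNA per cell cannot be told apart. Values without controls 1 and 2 are therefore given beside each group of genes. The library labelled control 2 also goes against its label at Esr1 and Yap1, as given next.

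Yap1, the targeted gene, was at 78.3, 142, 102, 84.4 and 95.4 CPM in Yap deleted libraries 1 to 5, against 215, 119, 168 and 187 CPM in controls 1 to 4. Yap deleted library 2 lay above control 2, and the other Yap deleted libraries lay below all controls. The mean log2(CPM + 1) was 0.77 lower in the Yap deleted group (difference −0.77, exact permutation test over all 126 splits of 9 libraries, two-sided p = 0.0238), and its mean CPM was 58.4% of the control mean. In edgeR's quasi-likelihood fit over all genes the log2 fold change was −0.78 ± 0.22 (SE), with a Benjamini-Hochberg adjusted p of 0.247. The table gives 1 count per gene, which does not separate the floxed exons from the rest of the transcript.

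Esr1, the oestrogen receptor gene whose ligand-binding domain is part of CreERT2 fusions, served as a readout of the transgene. Its level was 531, 387, 253, 242 and 271 CPM in Yap deleted libraries 1 to 5, against 1.85, 87.1, 3.91 and 0.952 CPM in controls 1 to 4. All Yap deleted libraries were far above controls 1, 3 and 4, while the library labelled control 2 lay in between, and that library also had the lowest Yap1 of the 4 controls. The log2 fold change was 3.84 ± 1.304 over all 9 libraries (edgeR adjusted p = 0.264). Among fits leaving out 1 library, it passed the adjustment only without control 2 (7.23 ± 0.61, edgeR adjusted p = 0.0241). Control 2 stands out by Esr1 itself, so that fit gives a size and is no separate check. Without controls 1 and 2 the log2 fold change was 7.07 (edgeR adjusted p = 0.137). The deposited table does not show whether these reads come from a human or a mouse receptor sequence.

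Sftpc itself, whose promoter drives the Cre, was at 2854, 2064, 28125, 24307 and 25909.5 CPM in Yap deleted libraries 1 to 5, against 10329, 7580.0, 30026 and 45818 CPM in controls 1 to 4. The Yap deleted libraries split into a low pair, libraries 1 and 2, and a high group of 3, and the low pair also had the highest Esr1. The other surfactant genes did not split that way: Sftpb was at 15172, 13706, 12690.2, 15050.3 and 15363 CPM in Yap deleted libraries, against 4838, 5021, 8613 and 13358 CPM in controls. Sftpa1 was at 11885, 10193, 12288, 13996 and 14052 CPM in Yap deleted libraries, against 4005, 4669, 5377 and 11044 CPM in controls. Both overlapped between groups only through control 4. The gene whose annotation ends 224 bases from that of Sftpc on chromosome 14, Bmp1 (chr14:70474555-70520716), a metalloprotease that processes procollagen, was higher in all Yap deleted libraries. It had 1414, 1035, 1047, 664 and 564 CPM in Yap deleted libraries 1 to 5, against 208, 461, 249 and 265 CPM in controls 1 to 4, a log2 fold change of 1.67 ± 0.34 (edgeR adjusted p = 0.247). Within the controls the highest Bmp1 was that of control 2. Lgi3, the neighbour on the other side, had 1512, 1213, 1697, 1662 and 1789 CPM in Yap deleted libraries, against 782, 638, 1428 and 2166 CPM in controls, with overlapping groups. Bmp1 was named after its values were seen.

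**Figure D1:**
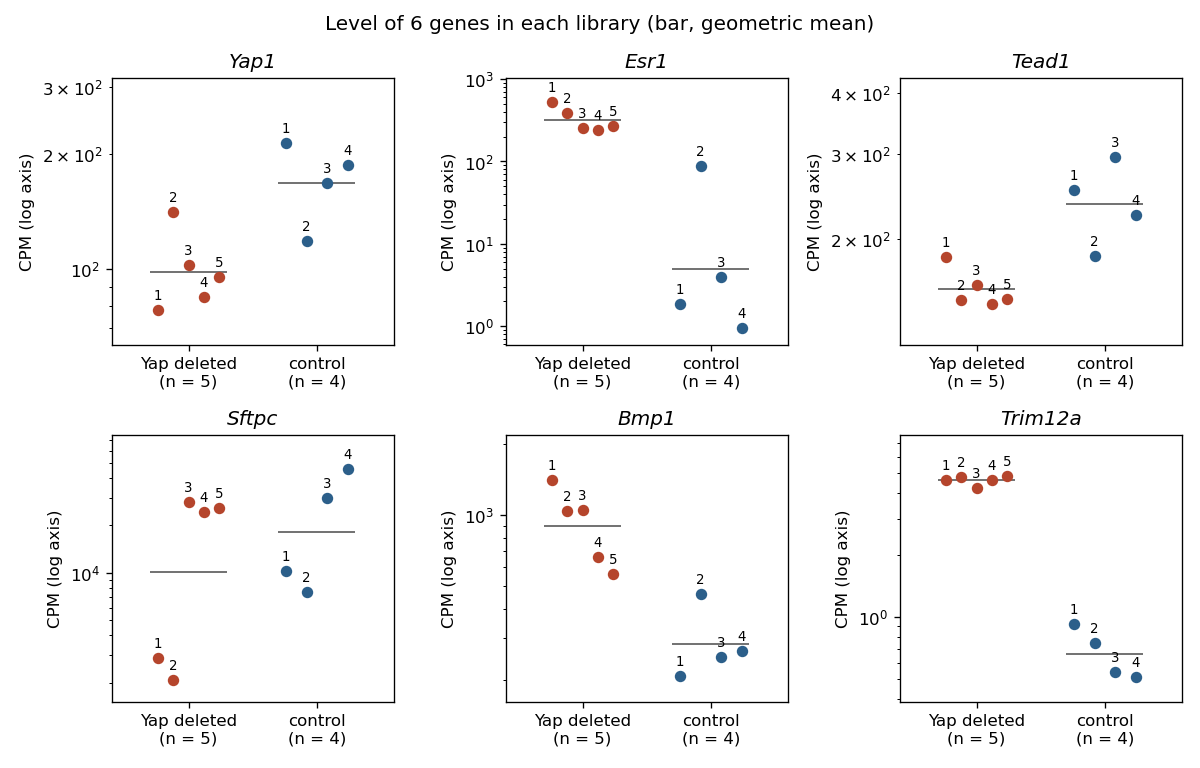
Level of selected genes in each of the 9 libraries (CPM, log scale), Yap deleted libraries on the left of each panel and controls on the right, with 1 numbered point per library and a bar at the geometric mean of the group. Yap1 in Yap deleted library 2 lies above control 2 and the other 4 lie below all controls, and Esr1 is high in all Yap deleted libraries and at 87.1 CPM in control 2.

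Among 15818 genes tested, edgeR called 1 gene higher in the Yap deleted group (0.00632% of genes tested) and 0 lower (0%) at an adjusted p under 0.05. At an unadjusted p under 0.05, 970 genes (6.13%) were higher and 1452 (9.18%) lower in the Yap deleted group. Other tools differed widely on the same counts: DESeq2 called 181 genes higher (1.14%) and 611 lower (3.86%), and limma-voom with sample quality weights called 0. Genes were also counted, as a description that uses no model, when all 5 Yap deleted libraries lay on one side of all 4 controls. That held for 418 genes above (2.64%) and 198 genes below (1.25%). With RLE in place of TMM scaling it held for 301 above and 292 below of the same 15818 genes, so the excess above depended on the scaling. Against controls 3 and 4 alone, with 16073 genes tested and fewer libraries to clear, it held for 772 above (4.8%) and 927 below (5.77%). Of all genes, 51% had a log2 fold change above 0 and 49% below, and the median was 0.01 with all libraries and without controls 1 and 2.

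The called gene was Trim12a (chr7:104299893-104315558, GRCm38.p6), a tripartite-motif gene in the mouse cluster related to the antiviral factor Trim5. It had 4.64, 4.78, 4.23, 4.66 and 4.88 CPM in Yap deleted libraries 1 to 5, against 0.927, 0.745, 0.538 and 0.508 CPM in controls 1 to 4. All Yap deleted libraries were several-fold above all controls, with little spread within either group. Trim12a rose with a log2 fold change of 2.76 ± 0.26 (edgeR adjusted p = 0.0243). Its log2 fold change stayed between 2.62 and 3.11 in every alternative fit, but the call was lost in edgeR without any 1 of the 5 Yap deleted libraries or without control 2 or control 3 (adjusted p 0.0618 to 0.156), as well as with sex read from Xist as a covariate (adjusted p 0.0570) and with limma-voom (adjusted p 0.0985). Without controls 1 and 2 it was called at 3.11 ± 0.24 (edgeR adjusted p = 0.0305). Trim12a sits among near copies with which reads could be shared, and the annotation of Gm15133 overlaps its end. Trim12c, a near copy in the same cluster, had 22.3, 19.7, 18.3, 19.95 and 20.5 CPM in Yap deleted libraries, against 93.2, 87.3, 30.8 and 27.99 CPM in controls, all Yap deleted libraries being below all controls. Trim34b, another member of the cluster, had 3.004, 2.63, 2.46, 1.97 and 2.38 CPM in Yap deleted libraries, against 10.3, 6.67, 4.64 and 4.47 CPM in controls, again without overlap and lower in the Yap deleted group. Trim34a had 7.302, 6.36, 6.202, 7.88 and 7.75 CPM in Yap deleted libraries, against 8.42, 5.38, 4.53 and 5.78 CPM in controls, with overlapping groups. Read assignment within this cluster is uncertain, so the levels of single members are too.

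The genes described next had the smallest p among those whose Yap deleted libraries all lay above all controls. None of them besides Trim12a passed the adjustment in edgeR, so the values are given as levels. Klk14, a secreted serine protease of the kallikrein family, had 32.8, 26.2, 24.01, 38.7 and 36.2 CPM in Yap deleted libraries 1 to 5, against 4.55, 6.85, 7.25 and 9.996 CPM in controls 1 to 4. Every Yap deleted library was more than 2 times the highest control, and the log2 fold change was 2.14 ± 0.25. Among the edgeR fits it passed the adjustment only without control 4, its highest control (2.31 ± 0.24, edgeR adjusted p = 0.0395). Klk13, its neighbour in the family, had 28.5, 19.9, 16.8, 25.6 and 24.3 CPM in Yap deleted libraries, against 7.604, 7.16, 9.09 and 9.68 CPM in controls, a log2 fold change of 1.46 ± 0.19. Kng2, a kininogen gene, had 20.6, 8.11, 11.9, 9.57 and 2.76 CPM in Yap deleted libraries, against 0.245, 0.544, 0.679 and 1.08 CPM in controls, so that its highest control was still below its lowest Yap deleted library. Its log2 fold change was 4.05 ± 0.64. The small Ras-like GTPase gene Rasd2 was at 71.6, 60.4, 76.5, 108 and 95.2 CPM in Yap deleted libraries, against 14.7, 21.1, 23.05 and 33.6 CPM in controls. The growth factor gene Pdgfc was at 9.08, 10.2, 6.41, 9.31 and 7.29 CPM in Yap deleted libraries, against 2.51, 3.47, 3.37 and 1.84 CPM in controls. Both were higher in all 5 Yap deleted libraries, by log2 fold changes of 1.83 ± 0.26 and 1.596 ± 0.25.

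Mitf, the transcription factor that drives lysosome-related organelles in pigment cells, had 50.1, 43.2, 52.1, 49.6 and 41.99 CPM in Yap deleted libraries 1 to 5, against 24.3, 27.01, 24.1 and 30.2 CPM in controls 1 to 4. Its level in the Yap deleted group was tight and above every control, by 0.84 ± 0.12 on the log2 scale, and by 0.77 without controls 1 and 2. Rab27a, a small GTPase that docks secretory lysosome-related organelles at the plasma membrane and in pigment cells is a target of Mitf, had 339.9, 272, 331, 255 and 255 CPM in Yap deleted libraries 1 to 5, against 124, 124, 166 and 149.7 CPM in controls 1 to 4. The groups lay apart by a log2 fold change of 1.05 ± 0.15. Exoc4, a subunit of the exocyst, the complex that tethers secretory vesicles, had 67.2, 59.1, 44.3, 56.7 and 57.2 CPM in Yap deleted libraries, against 33.2, 31.4, 28.9 and 33.3 CPM in controls (log2 fold change 0.85 ± 0.13). Of 29 lysosome and Mitf family genes tested, 21 had a log2 fold change above 0 and 8 below, with a median of 0.16 (0.03 without controls 1 and 2). Their log2 fold changes ran from −2.06 in Tfec, a relative of Mitf, to 1.05 in Rab27a. At an unadjusted p under 0.05 in edgeR, 4 were higher and 3 lower. In 4 of the 29, Mitf, Rab27a, Ctsb and Atp6v0d1, all Yap deleted libraries were above all controls (2.64% of all genes were), and in 0 all were below (1.25% of all genes were). Ctsb, a lysosomal protease, had 594, 516, 515, 538 and 560.0 CPM in Yap deleted libraries, against 368, 439, 437 and 488 CPM in controls. Atp6v0d1, a subunit of the proton pump of lysosomes, had 148, 123, 129, 119 and 128 CPM in Yap deleted libraries, against 83.5, 107, 108 and 119 CPM in controls. For Atp6v0d1, Yap deleted library 4 and control 4 were nearly level. The differences of Ctsb and Atp6v0d1 were smaller than that of Rab27a, at 0.33 ± 0.13 and 0.31 ± 0.13 on the log2 scale.

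Mitf and its relatives bind the E-box CACGTG, so the RefSeq promoter windows (250 bases before to 50 after a gene's start, GRCm38.p6) were searched for it; it is its own reverse complement, so one search covers both strands. It stood in 2349 of 32851 windows of all genes (7.15%) and in 11 of the 32 windows of the 23 lysosome and Mitf family genes that could be matched (34.4%). Genes without overlap and with steady controls (highest control under 2 times the lowest) were searched too, the 12 of smallest p per direction. Of the 15 windows of the 12 higher genes, 1 held the E-box, that of Rab27a (6.67%). Of the 15 windows of the 12 lower genes, 0 did. Rab27a has 2 windows in the table. The one with the match, chr9:73063898-73064197 on the plus strand, is shown 5′ to 3′ because Rab27a was the member with the clearest separation beside Mitf; capitals mark the E-box.
Rab27a: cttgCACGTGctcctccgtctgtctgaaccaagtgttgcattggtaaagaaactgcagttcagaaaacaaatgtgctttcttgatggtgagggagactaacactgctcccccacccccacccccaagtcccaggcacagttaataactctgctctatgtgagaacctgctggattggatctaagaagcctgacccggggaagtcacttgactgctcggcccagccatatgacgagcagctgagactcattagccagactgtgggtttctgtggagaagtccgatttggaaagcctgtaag
A match of letters is a description of the window and not evidence that a factor binds it.

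Elovl1, which elongates very long fatty acids, had 1372, 967, 896, 870.2 and 608 CPM in Yap deleted libraries 1 to 5, against 235, 343, 356 and 295 CPM in controls 1 to 4. The lowest Yap deleted library was well above the highest control, and the log2 fold change was 1.62 ± 0.25, or 1.504 without controls 1 and 2. Slc19a2, a thiamine transporter, had 25.4, 22.2, 16.99, 19.9 and 19.4 CPM in Yap deleted libraries, against 9.65, 12.5, 8.92 and 10.4 CPM in controls (log2 fold change 1.002 ± 0.16). Hykk, the hydroxylysine kinase, had 57.2, 51.4, 37.7, 75.6 and 64.01 CPM in Yap deleted libraries, against 31.3, 25.9, 22.6 and 26.6 CPM in controls (log2 fold change 1.104 ± 0.20). Hmox1, the haem-degrading oxygenase, was at 62.5, 68.6, 65.6, 69.4 and 57.8 CPM in Yap deleted libraries, against 33.6, 40.5, 42.6 and 46.8 CPM in controls, a log2 fold change of 0.66 ± 0.12. In all 3 the lowest Yap deleted library was above the highest control. The gene listed as 9030617O03Rik (Dglucy in RefSeq) had 54.4, 39.9, 28.2, 31.4 and 22.9 CPM in Yap deleted libraries, against 6.68, 12.8, 8.49 and 6.92 CPM in controls. N28178 (Phf24 in RefSeq) had 28.7, 17.7, 35.5, 37.7 and 40.8 CPM in Yap deleted libraries, against 4.72, 10.1, 3.06 and 5.43 CPM in controls. Their log2 fold changes were 2.02 ± 0.30 and 2.46 ± 0.38. Over the table, the 310 higher genes with steady controls (highest control under 2 times the lowest, higher group averaging at least 4 CPM) had a median log2 fold change of 0.43. The 111 lower genes with steady controls had one of −0.44. The signs were fixed by the choice of genes, so the medians give only a size. These genes come from the 418 above all controls (2.64% of genes tested) and the 198 below (1.25%). With RLE scaling those numbers were 301 and 292.

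**Figure D2:**
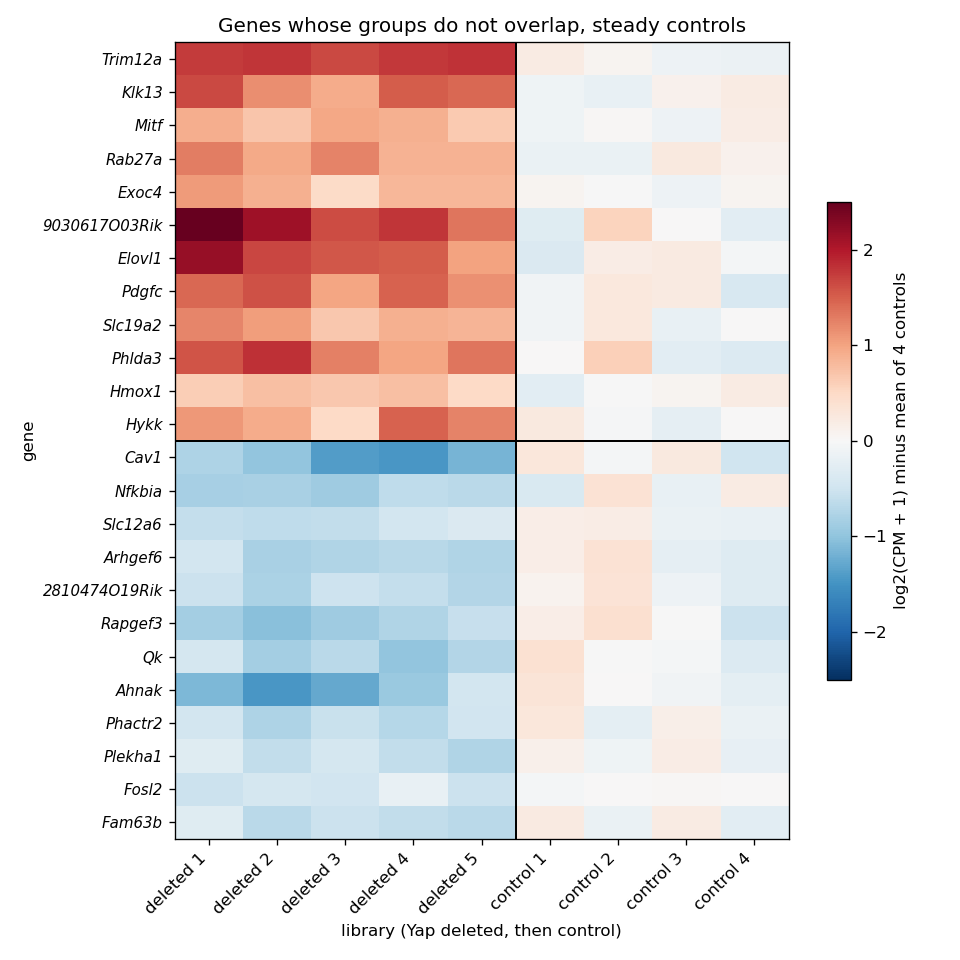
Level of the genes without overlap whose 4 controls spanned under 2-fold, 12 per direction, as the colour of log2(CPM + 1) minus the mean of the 4 controls, with the 5 Yap deleted libraries in the left columns and the controls in the right ones. Trim12a is evenly high in all 5 Yap deleted libraries, Ahnak is nearest to the controls in Yap deleted library 5, and Fosl2 is nearest to them in library 4.

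Cav1, Ahnak and Elf4 had all Yap deleted libraries below all controls. Cav1, the coat protein of caveolae and a gene of AT1 and endothelial cells, had 252, 218, 162, 157 and 191 CPM in Yap deleted libraries 1 to 5, against 527, 419, 511 and 305 CPM in controls 1 to 4. The difference was −1.17 ± 0.20 on the log2 scale and −1.09 without controls 1 and 2, measured there against the 2 controls with few endothelial transcripts. One of them, control 3, had the highest AT1 marker sum of all libraries. The 30 AT1 markers had a median of −1.04 in that fit, and the part of AT1 cell content was not tested. Ahnak, a giant scaffold protein listed among AT1 markers, had 781, 625, 702, 897 and 1248 CPM in Yap deleted libraries 1 to 5, against 2135, 1721, 1599 and 1452 CPM in controls 1 to 4; its log2 fold change was −1.02 ± 0.23. Elf4, an ETS-family transcription factor, had 22.3, 17.3, 14.9, 18.9 and 16.6 CPM in Yap deleted libraries 1 to 5, against 44.3, 66.1, 49.5 and 29.005 CPM in controls 1 to 4. Its log2 fold change was −1.39 ± 0.22, and among the edgeR fits it passed the adjustment only without control 4 (−1.60 ± 0.17, edgeR adjusted p = 0.0395). Sema3f, a secreted axon guidance protein, also passed only there (−1.45 ± 0.15, edgeR adjusted p = 0.0395), with 39.8, 39.8, 33.3, 35.4 and 27.04 CPM in Yap deleted libraries, against 96.97, 104, 81.8 and 38.5 CPM in controls and control 4 inside the Yap deleted range. Sema3f was named after that fit was seen.

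Rapgef3 and Rapgef4 encode the Epac proteins, exchange factors that turn a rise in cyclic AMP into Rap activation. Rapgef3 had 12.7, 10.9, 12.3, 13.6 and 15.5 CPM in Yap deleted libraries, against 26.4, 31.5, 23.4 and 15.8 CPM in controls, a log2 fold change of −0.90 ± 0.20. Rapgef4 had 1.81, 1.49, 1.61, 2.23 and 1.84 CPM in Yap deleted libraries, against 11.1, 10.9, 3.48 and 5.01 CPM in controls, a log2 fold change of −2.09 ± 0.36. Both Epac genes were thus below all controls in all Yap deleted libraries. Controls 1 and 2 were the highest libraries for both, and without them the log2 fold change of Rapgef3 was −0.62. Lpl, lipoprotein lipase, had 32.7, 45.5, 53.1, 65.2 and 54.9 CPM in Yap deleted libraries, against 128, 163, 71.3 and 117 CPM in controls (log2 fold change −1.25 ± 0.26, or −0.94 without controls 1 and 2). Qk, an RNA-binding splicing factor, had 208, 157, 179, 143 and 169.5 CPM in Yap deleted libraries, against 371, 283, 275 and 224 CPM in controls (log2 fold change −0.75 ± 0.17). Fosl2, an AP-1 subunit, had 94.2, 100.2, 97.8, 120.5 and 93.7 CPM in Yap deleted libraries, against 131, 138, 139 and 138 CPM in controls (log2 fold change −0.43 ± 0.10). In Fosl2 the controls were tight and Yap deleted library 4 lay nearest to them. Arhgef6, an exchange factor for Rac and Cdc42, had 36.4, 28.3, 29.2, 30.8 and 29.3 CPM in Yap deleted libraries, against 56.7, 64.5, 42.9 and 40.05 CPM in controls. Phactr2, a regulator of actin and phosphatase 1, had 119, 96.1, 112, 101 and 118 CPM in Yap deleted libraries, against 201, 138, 182 and 146 CPM in controls. Their groups did not overlap, and their log2 fold changes were −0.73 ± 0.16 and −0.61 ± 0.14. Controls 1 and 2 were also the highest libraries for Lpl, Qk and Arhgef6. The part of endothelial and immune cells in these genes was not tested.

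All Yap deleted libraries lay below all controls for 2 of 32 interferon-stimulated genes and 1 of 19 macrophage markers (1.25% of all genes did), and for 0 of 12 neutrophil and 0 of 9 lymphocyte markers. Ifit3, induced by interferon, had 17.9, 10.95, 15.4, 13.8 and 9.96 CPM in Yap deleted libraries, against 71.6, 31.9, 42.5 and 27.04 CPM in controls. Control 1 was the highest, and the log2 fold change was −1.67 ± 0.30 with all controls and −1.38 without controls 1 and 2. Csf1r, the receptor that marks macrophages, had 46.1, 25.5, 28.8, 37.7 and 32.1 CPM in Yap deleted libraries, against 50.1, 108, 95.2 and 66.8 CPM in controls, a log2 fold change of −1.24 ± 0.25, or −1.28 without controls 1 and 2. Samhd1, a nucleotide-degrading restriction factor, had 85.1, 63.6, 61.8, 50.1 and 56.5 CPM in Yap deleted libraries, against 246, 280.5, 136 and 98.2 CPM in controls. Controls 1 and 2 were its highest libraries, and its log2 fold change was −1.58 ± 0.31, or −0.92 without them. The 19 macrophage markers tested summed to 158 to 433 CPM in Yap deleted libraries, 406 to 1271 CPM in controls 1 and 2 and 276 to 478 CPM in controls 3 and 4. The part of other cell types in these differences was not tested.

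Within the Hippo pathway, Tead1 was the member whose groups lay apart. Tead1, a DNA-binding partner of Yap, had 184, 149.8, 161, 148 and 150.4 CPM in Yap deleted libraries 1 to 5, against 253, 184, 296 and 225 CPM in controls 1 to 4. Yap deleted library 1 lay just below control 2 (184.03 against 184.40 CPM) and the other Yap deleted libraries lay clearly below all controls. The log2 fold change was −0.60 ± 0.15, or −0.75 without controls 1 and 2 (edgeR adjusted p = 0.247 with all libraries). Wwtr1, which encodes Taz, had 145, 152, 135, 116 and 138 CPM in Yap deleted libraries, against 215, 154, 166 and 143 CPM in controls, with overlapping groups (log2 fold change −0.30 ± 0.14). Tead4 had 14.8, 9.27, 10.6, 10.3 and 7.29 CPM in Yap deleted libraries, against 15.8, 9.62, 26.2 and 17.5 CPM in controls, with overlapping groups (log2 fold change −0.72 ± 0.29). For Tead1 and Tead4, control 3 was the highest library, as it was for the AT1 marker sum. The other Tead genes, Tead2 and Tead3, had log2 fold changes of −0.32 ± 0.52 and 0.14 ± 0.17. Of 28 Hippo components tested, Yap1 included, 20 had a log2 fold change below 0 and 8 above, with a median of −0.30 (−0.08 without controls 1 and 2), and Tead1 was the only one without overlap (1.25% of all genes lay below all controls).

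Of 27 Yap and Tead target genes tested, 23 had a log2 fold change below 0 and 4 above, with a median of −0.43 (−0.23 without controls 1 and 2), beside 49% of all genes below 0 and a median of 0.01. In 1 of them, again Tead1, all Yap deleted libraries were below all controls, beside 1.25% of all genes. Control 3, which had the highest AT1 marker sum, also had the highest median level of the target list. The summed level of the list was highest in control 1. Over all alternative fits the median log2 fold change of the list ran from −0.59 to −0.23. The part of AT1 cell content in these values was not tested. Ctgf, a secreted matricellular protein and the most used Yap readout, had 221, 139, 371, 86.7 and 115 CPM in Yap deleted libraries, against 221, 381, 338 and 95.4 CPM in controls (log2 fold change −0.47 ± 0.50). Cyr61, its relative, had 136, 157, 301, 41.01 and 74.5 CPM in Yap deleted libraries, against 246, 117, 247 and 72.2 CPM in controls (log2 fold change −0.27 ± 0.57). Both ranged widely within each group and overlapped.

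Ankrd1, an ankyrin repeat protein and a common Yap target, had 3.25, 1.19, 1.79, 0.947 and 0.144 CPM in Yap deleted libraries 1 to 5, against 3.33, 2.75, 6.71 and 1.904 CPM in controls 1 to 4. Yap deleted library 1 was above controls 2 and 4, and the log2 fold change was −1.32 ± 0.70. Ajuba, a LIM protein that inhibits the Lats kinases, had 70.1, 64.4, 54.03, 43.3 and 31.6 CPM in Yap deleted libraries, against 91.8, 70.4, 137 and 66.7 CPM in controls (log2 fold change −0.80 ± 0.28). Only Yap deleted library 1 reached into the control range. Axl, a receptor tyrosine kinase, had 39.3, 62.4, 38.6, 63.6 and 57.3 CPM in Yap deleted libraries, against 119, 177, 48.6 and 71.1 CPM in controls (log2 fold change −0.99 ± 0.35, or −0.23 without controls 1 and 2). Ptpn14, a phosphatase that holds Yap in the cytoplasm, had 87.4, 68.4, 71.4, 92.97 and 71.7 CPM in Yap deleted libraries, against 101, 75.5, 155 and 123 CPM in controls (log2 fold change −0.54 ± 0.20). In Axl control 3 lay inside the Yap deleted range, and in Ptpn14 control 2 did. Fjx1, a secreted regulator of planar polarity, had 41.8, 15.5, 33.6, 18.98 and 12.4 CPM in Yap deleted libraries, against 38.3, 36.4, 78.7 and 42.02 CPM in controls (log2 fold change −0.998 ± 0.39). Lats2, the kinase that phosphorylates Yap, and Amotl2, which tethers Yap to junctions, had log2 fold changes of −0.43 ± 0.20 and −0.16 ± 0.24. Control 3 was the highest library for Ankrd1, Ajuba, Ptpn14, Fjx1 and Amotl2, but not for Axl or Lats2. None of these target genes passed the adjustment in edgeR.

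The Tead core GGAATG, or CATTCC on the other strand, was searched in the same promoter windows. It stood in 4817 of 32851 windows (14.7%) and in 8 of the 22 windows of the 20 Yap and Tead targets that could be matched (36.4%), those of Ajuba, Amotl2, Ankrd1, Axl, Crim1, Cyr61, Lats2 and Ptpn14. The windows of 4 of these, with the largest log2 fold changes among the targets that hold the core, are shown to let the position of the core be seen; capitals mark it. They are those of Ankrd1 (chr19:36119795-36120094, minus strand), Ajuba (chr14:54577612-54577911, minus strand), Axl (chr7:25788684-25788983, minus strand) and Ptpn14 (chr1:189728018-189728317, plus strand), each 5′ to 3′ on the gene's own strand and chosen after the values were seen.
Ankrd1: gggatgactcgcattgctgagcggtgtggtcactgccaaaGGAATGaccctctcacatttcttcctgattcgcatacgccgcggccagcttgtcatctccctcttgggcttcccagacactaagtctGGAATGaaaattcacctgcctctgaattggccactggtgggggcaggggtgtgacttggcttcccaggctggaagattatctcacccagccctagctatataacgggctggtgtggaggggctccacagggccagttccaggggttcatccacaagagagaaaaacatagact
Ajuba: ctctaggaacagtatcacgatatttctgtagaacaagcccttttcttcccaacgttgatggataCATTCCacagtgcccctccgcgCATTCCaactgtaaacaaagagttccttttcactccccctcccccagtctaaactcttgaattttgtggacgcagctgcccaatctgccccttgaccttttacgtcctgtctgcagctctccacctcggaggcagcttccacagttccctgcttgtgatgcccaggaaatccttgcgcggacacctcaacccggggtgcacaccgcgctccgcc
Axl: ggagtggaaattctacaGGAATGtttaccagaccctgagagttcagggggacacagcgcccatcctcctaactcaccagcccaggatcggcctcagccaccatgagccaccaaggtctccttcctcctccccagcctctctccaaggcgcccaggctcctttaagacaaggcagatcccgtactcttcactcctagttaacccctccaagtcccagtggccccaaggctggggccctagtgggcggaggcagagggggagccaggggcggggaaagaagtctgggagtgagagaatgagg
Ptpn14: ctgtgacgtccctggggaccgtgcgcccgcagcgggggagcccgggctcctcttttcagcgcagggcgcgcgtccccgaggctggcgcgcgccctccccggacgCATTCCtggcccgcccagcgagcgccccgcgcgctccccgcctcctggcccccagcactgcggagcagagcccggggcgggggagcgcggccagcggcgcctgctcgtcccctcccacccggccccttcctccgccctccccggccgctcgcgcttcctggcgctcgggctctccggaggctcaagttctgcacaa
Ankrd1 and Ajuba hold 2 matches each, and Axl and Ptpn14 hold 1 each. Among the 12 lower genes with steady controls, 11 could be matched, and 3 of their 15 windows held the core, those of Ahnak, Arhgef6 and Phactr2 (20.0%). Of the 15 windows of the 12 higher genes with steady controls, 2 held it (13.3%), beside 14.7% of all windows.

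The title of the study names the NFI factors and Klf5 as regulators of interest. Nfia had 89.1, 119, 132, 102 and 136 CPM in Yap deleted libraries, against 249, 216, 103 and 125 CPM in controls (log2 fold change −0.58 ± 0.27, or −0.02 without controls 1 and 2). Nfib, its relative in lung maturation, had 212, 384, 326, 209.9 and 408 CPM in Yap deleted libraries, against 668, 649, 243 and 227 CPM in controls (log2 fold change −0.54 ± 0.39, or 0.35 without controls 1 and 2). For both, controls 1 and 2 were the highest libraries. Nfib was lowest in Yap deleted libraries 1 and 4 and controls 3 and 4, which also had the lowest mesenchymal marker sums. The part of mesenchymal cells in the Nfib levels was not tested. Klf5, a zinc finger factor of alveolar epithelium, had 132, 106, 124, 154 and 107 CPM in Yap deleted libraries, against 64.6, 38.98, 179 and 153 CPM in controls (log2 fold change 0.20 ± 0.40, or −0.44 without controls 1 and 2). Nkx2-1, the lineage factor of lung epithelium, had 1188, 992, 1086, 1072 and 874 CPM in Yap deleted libraries, against 601, 435, 1171 and 1271 CPM in controls (log2 fold change 0.26 ± 0.31, or −0.26 without controls 1 and 2). For Klf5 and Nkx2-1, controls 1 and 2 were the lowest libraries, so that the sign turned without them. Of 32 lung epithelial transcription factors tested, 22 were above 0 and 10 below, with a median of 0.13 (−0.18 without controls 1 and 2), and 2 lay without overlap, Foxp2 and Klf6, both lower in the Yap deleted group (1.25% of all genes lay below all controls). Foxp2, a forkhead factor of the distal lung, had 25.4, 19.99, 22.5, 25.3 and 20.7 CPM in Yap deleted libraries, against 33.9, 26.7, 30.01 and 33.4 CPM in controls (log2 fold change −0.44 ± 0.12). Klf6, a zinc finger factor, had 152, 141, 150.1, 144 and 197 CPM in Yap deleted libraries, against 241, 284, 204 and 197 CPM in controls (log2 fold change −0.56 ± 0.15), Yap deleted library 5 and control 4 being nearly level.

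Among genes of the p53 response, several lay far above the controls in all Yap deleted libraries, while others overlapped with them. Of 25 tested, 18 had a log2 fold change above 0 and 7 below, the median was 0.23 (0.37 without controls 1 and 2), and in 8 of them all Yap deleted libraries lay above all controls (2.64% of all genes did), in 0 below. Gdf15, a secreted stress cytokine, had 135, 84.9, 57.2, 82.7 and 39.5 CPM in Yap deleted libraries 1 to 5, against 1.14, 20.8, 6.002 and 6.89 CPM in controls 1 to 4. Its log2 fold change was 3.197 ± 0.73, and 3.603 without controls 1 and 2. Cdkn1a, the cell cycle inhibitor p21, had 807, 629, 459, 484 and 346 CPM in Yap deleted libraries 1 to 5, against 50.6, 242, 99.1 and 94.9 CPM in controls 1 to 4, a log2 fold change of 2.16 ± 0.45. Ccng1, cyclin G1, had 261, 186, 130.0, 141 and 122 CPM in Yap deleted libraries, against 60.8, 99.5, 52.2 and 50.5 CPM in controls (log2 fold change 1.35 ± 0.29). In these 3 genes Yap deleted library 1 was the highest of its group, as it was for Esr1, and control 2, the control with Esr1 at 87.1 CPM, was the highest control. Any link of these genes to Esr1 was not tested. Control 2 also had the highest neutrophil and lymphocyte marker sums of all libraries.

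The other members without overlap were Phlda3, an inhibitor of Akt, Zmat3, a zinc finger RNA-binding protein, Aen, an apoptotic nuclease, Sesn2, a stress-responsive inhibitor of mTORC1 signalling, and Ddit4l. Phlda3 had 166, 197, 134, 109.9 and 141 CPM in Yap deleted libraries, against 55.3, 83.1, 45.8 and 43.3 CPM in controls (log2 fold change 1.39 ± 0.24). Zmat3 had 121, 105, 95.2, 109.7 and 85.7 CPM in Yap deleted libraries, against 47.9, 70.4, 31.7 and 35.7 CPM in controls (log2 fold change 1.15 ± 0.23). Aen had 67.4, 60.7, 42.5, 49.7 and 45.5 CPM in Yap deleted libraries, against 23.3, 37.2, 25.9 and 29.6 CPM in controls (log2 fold change 0.87 ± 0.19). In all 3, control 2 was the highest control. Sesn2 had 60.4, 51.9, 57.4, 47.9 and 54.2 CPM in Yap deleted libraries, against 18.8, 27.7, 29.5 and 44.6 CPM in controls. Its log2 fold change was 0.85 ± 0.22, and control 4 was its highest control. Ddit4l differed by 1.18 ± 0.23 on the log2 scale. Mdm2, the p53 ligase and a standard target, had 107, 89.1, 93.2, 99.7 and 82.1 CPM in Yap deleted libraries, against 75.7, 81.98, 87.7 and 83.9 CPM in controls (log2 fold change 0.20 ± 0.11). Trp53 itself had a log2 fold change of −0.14 ± 0.18. Bax, the pore-forming apoptotic protein, had 79.5, 66.2, 54.8, 51.01 and 39.9 CPM in Yap deleted libraries, against 24.6, 45.5, 29.7 and 25.7 CPM in controls (log2 fold change 0.89 ± 0.25) with overlapping groups. Fas and Pmaip1 lay on the other side, with log2 fold changes of −0.83 ± 0.42 and −2.34 ± 0.89, and of 0.29 and −0.09 without controls 1 and 2. The summed level of the list was 1772 to 2746 CPM in Yap deleted libraries and 1113 to 1602 CPM in controls. None of the 25 passed the adjustment in edgeR, and Cre activity and Yap loss cannot be told apart for them.

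**Figure D3:**
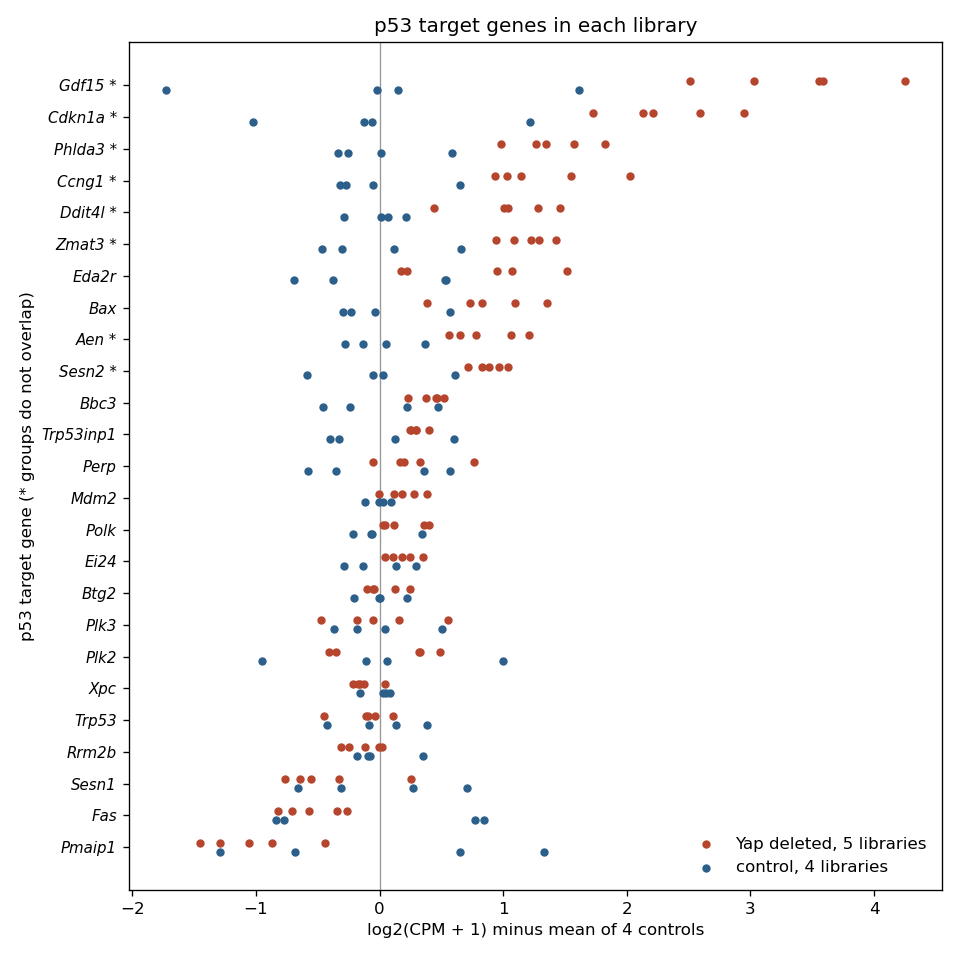
Level of the 25 p53 response genes tested in each library, as log2(CPM + 1) minus the mean of the 4 controls (x axis), with 1 red point per Yap deleted library above 1 blue point per control in each gene's row and a star where the groups do not overlap. Gdf15 and Cdkn1a lie furthest from the controls, and Mdm2 and Trp53 overlap with them.

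AT2 markers were mostly higher and AT1 markers mostly lower in the Yap deleted group, but the size depended on which controls were used. Of 30 AT2 markers, 28 had a log2 fold change above 0 and 2 below (Sftpc and Lyz1), with a median of 0.65, and 0.24 without controls 1 and 2. All Yap deleted libraries were above all controls for 3 of them, Napsa, Rab27a and Elovl1, beside 2.64% of all genes. Napsa, the aspartic protease that processes surfactant protein B, had 1852, 1452, 1138, 1614 and 1397 CPM in Yap deleted libraries 1 to 5, against 437, 469, 667 and 1055 CPM in controls 1 to 4. Its log2 fold change was 1.18 ± 0.29, and 0.76 without controls 1 and 2. Abca3, the lamellar body lipid transporter, had 2859, 2413, 2708, 2860.0 and 2769.9 CPM in Yap deleted libraries, against 1092, 796, 1639.9 and 2821 CPM in controls (log2 fold change 0.78 ± 0.34), so that control 4 lay within the Yap deleted range. Etv5, a transcription factor downstream of FGF signalling in AT2 cells, had 1062, 889, 851, 1022 and 924 CPM in Yap deleted libraries, against 441, 306, 623 and 1006 CPM in controls (log2 fold change 0.68 ± 0.31).

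Of 30 AT1 markers, 27 had a log2 fold change below 0 and 3 above, with a median of −0.57, and −1.04 without controls 1 and 2. Without control 3 alone the median was −0.09, so the difference turned largely on that library. Hopx, a homeodomain protein of AT1 cells, had 626, 224, 259, 219.9 and 169.7 CPM in Yap deleted libraries 1 to 5, against 217, 211, 919 and 429 CPM in controls 1 to 4. Control 3 was the highest library, and Yap deleted library 1 was above the other 3 controls. Ager, a receptor gene strongly expressed by AT1 cells, had 3123, 1765, 1659, 1075 and 875 CPM in Yap deleted libraries, against 1030.5, 879, 4796 and 2224 CPM in controls (log2 fold change −0.39 ± 0.55). Pdpn, the AT1 membrane glycoprotein, had 102, 45.8, 50.5, 30.1 and 25.1 CPM in Yap deleted libraries, against 64.9, 47.7, 175 and 85.7 CPM in controls (log2 fold change −0.88 ± 0.48). Of the 30 AT1 markers, 2 (Cav1 and Ahnak) were below all controls in all Yap deleted libraries, beside 1.25% of all genes.

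Lipid synthesis genes were mostly above 0 as well. All 24 sterol synthesis genes tested had a log2 fold change above 0, with a median of 0.56, and 0.16 without controls 1 and 2, where 5 were below 0. Dhcr7 and Mvd were the 2 above all controls, beside 2.64% of all genes. Dhcr7, the last enzyme of cholesterol synthesis, had 52.01, 55.7, 49.95, 51.9 and 53.1 CPM in Yap deleted libraries, against 20.4, 26.1, 34.4 and 42.1 CPM in controls (log2 fold change 0.77 ± 0.19). Mvd, of the mevalonate pathway, had 48.8, 48.2, 47.4, 40.5 and 45.8 CPM in Yap deleted libraries, against 13.2, 19.6, 36.1 and 40.4 CPM in controls (log2 fold change 0.76 ± 0.30). Phospholipid and lamellar body genes were above 0 in 26 of 29 (median 0.47, or 0.07 without controls 1 and 2), with 5 lying above all controls (2.64% of all genes did), Acot7, Gpd1, Napsa, Pla2g1b and Rab27a. Acot7, an acyl-CoA thioesterase, had 468, 388, 392, 493 and 427 CPM in Yap deleted libraries, against 71.1, 113, 171 and 268 CPM in controls (log2 fold change 1.48 ± 0.34). Gpd1, which makes glycerol 3-phosphate, had 129.7, 119.8, 146, 176 and 114 CPM in Yap deleted libraries, against 56.01, 44.6, 103 and 108 CPM in controls (log2 fold change 0.81 ± 0.28). Fatty acid synthesis and elongation genes were above 0 in 16 of 20 (median 0.41, or 0.25 without controls 1 and 2), with 3 above all controls (2.64% of all genes were). These were Elovl1, Me1, the malic enzyme that supplies NADPH, and Slc25a1, the mitochondrial citrate carrier. The lists share members: Rab27a, Napsa and Elovl1 are also AT2 markers, and Rab27a is also a lysosome and Mitf family gene.

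**Figure D4:**
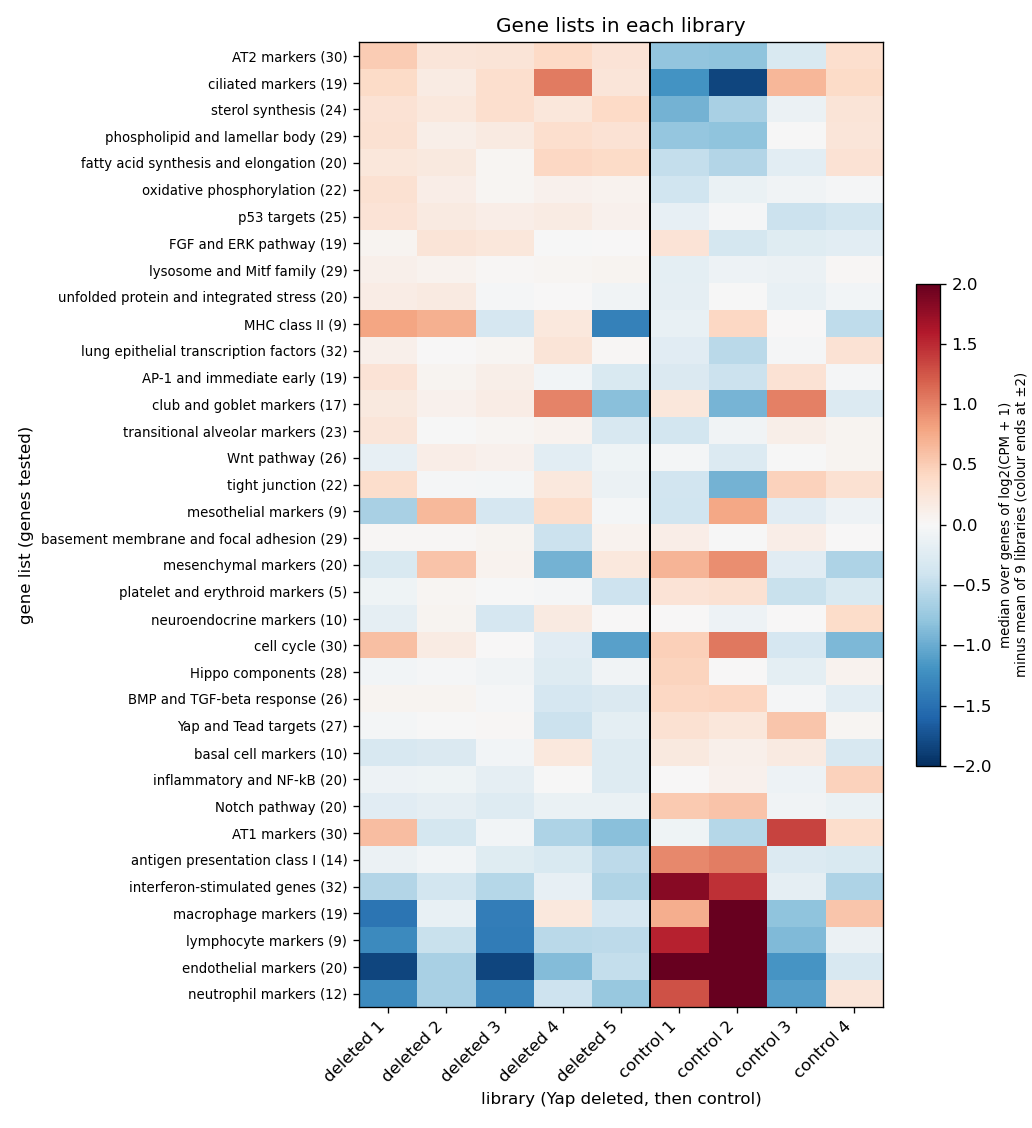
Level of each of the 36 gene lists in each library, as the colour of the median over its genes of log2(CPM + 1) minus the mean of the 9 libraries (colour ends at ±2), Yap deleted libraries in the left columns and controls in the right ones. Controls 1 and 2 stand apart in endothelial, interferon and lymphocyte lists, control 3 is highest in AT1 markers, and the p53 median is higher in all Yap deleted libraries than in all controls.

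Of 22 oxidative phosphorylation genes tested, 21 had a log2 fold change above 0 (median 0.27, or 0.14 without controls 1 and 2), and 7 lay above all controls in all Yap deleted libraries (2.64% of all genes did). None passed the adjustment in edgeR. Cox5a, a subunit of the terminal oxidase, had 40.7, 36.9, 32.96, 39.4 and 33.8 CPM in Yap deleted libraries 1 to 5, against 17.3, 22.2, 28.8 and 27.8 CPM in controls 1 to 4 (log2 fold change 0.61 ± 0.16). Ndufb9, of the first respiratory complex, had 79.6, 73.003, 57.6, 63.2 and 67.6 CPM in Yap deleted libraries, against 34.4, 40.6, 53.7 and 56.5 CPM in controls (log2 fold change 0.56 ± 0.17). Sdhb, of the succinate dehydrogenase, had 35.4, 34.4, 32.2, 30.5 and 29.9 CPM in Yap deleted libraries, against 21.5, 23.8, 29.6 and 28.9 CPM in controls (log2 fold change 0.32 ± 0.13). For Sdhb, Yap deleted library 5 lay just above control 3. The others without overlap were Ndufb3, Cox4i1, Atp5b and Atp5c1.

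Of 20 inflammatory and NF-kB genes tested, 16 had a log2 fold change below 0 and 4 above, with a median of −0.50 (−0.67 without controls 1 and 2), and 2 lay below all controls in all Yap deleted libraries (1.25% of all genes did). The summed level of the list did not follow the median: it was 1923, 1789.7, 1519, 1656 and 1214 CPM in Yap deleted libraries 1 to 5, against 1041, 1165, 1935 and 2015 CPM in controls 1 to 4. Nfkbia, the inhibitor of NF-kB and one of its own targets, had 59.3, 59.9, 56.9, 67.6 and 66.05 CPM in Yap deleted libraries 1 to 5, against 80.9, 137, 93.6 and 122 CPM in controls 1 to 4. All Yap deleted libraries were below all controls, by −0.81 ± 0.16 on the log2 scale. Tnfaip3, the ubiquitin editing enzyme A20 that limits NF-kB signalling, had 23.6, 18.4, 17.97, 24.3 and 21.9 CPM in Yap deleted libraries, against 26.001, 24.7, 30.6 and 41.6 CPM in controls (log2 fold change −0.53 ± 0.18), again without overlap. Both are feedback genes of the pathway, and neither passed the adjustment in edgeR.

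Other lists turned on controls 1 and 2. All 32 interferon-stimulated genes had a log2 fold change below 0 (median −1.89), with a median of −0.20 without those libraries. Their summed level was 311 to 389 CPM in Yap deleted libraries, 1348 and 2160 CPM in controls 1 and 2 and 349 and 433 CPM in controls 3 and 4. All 20 endothelial markers were below 0 (median −4.11, or −0.49 without controls 1 and 2), and 18 of 19 macrophage markers were (median −1.91, or −0.66 without controls 1 and 2). All 19 ciliated cell markers were above 0 (median 0.62), with a median of −0.12 without controls 1 and 2. Of 30 cell cycle genes, 24 were below 0 with all controls (median −0.30), while the median was 0.78 without controls 1 and 2. Class I antigen presentation genes had medians of −0.77 and 0.03 in the same order. The part of endothelial and immune cells in these values was not tested.

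**Figure D5:**
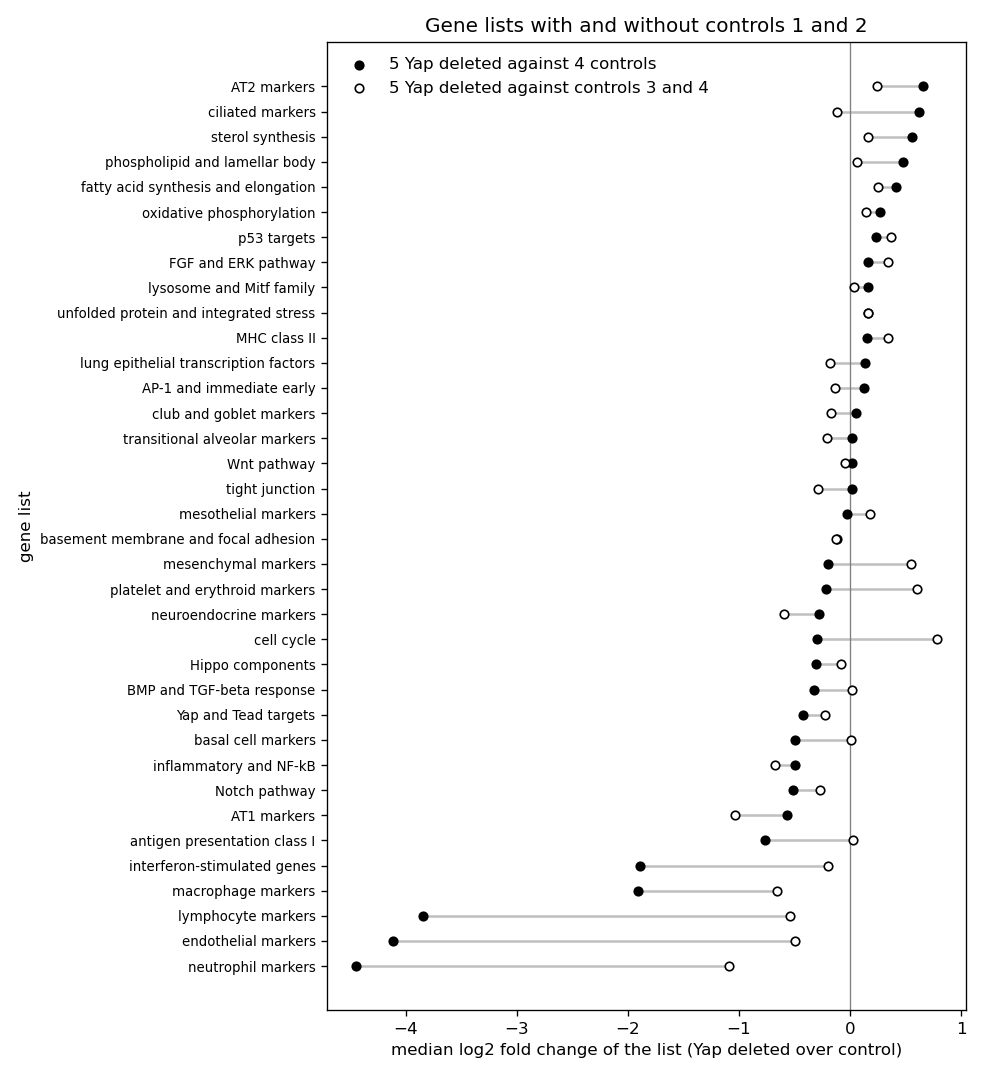
Median log2 fold change, Yap deleted over control, of each gene list with all 4 controls (filled) and without controls 1 and 2 (open). Endothelial, neutrophil and lymphocyte lists move furthest between the settings, cell cycle and ciliated lists cross 0, and p53 targets, AT2 markers and inflammatory genes lie on the same side of 0 in both.

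The authors' deposited region lists name 532 regions of chromatin that opened and 676 that closed after Yap deletion (mm10). The samples described here include 2 Yap deleted chromatin samples and 1 control chromatin sample of the line, so the control side has no replicate check. The RNA of nearby genes was read beside them. The 274 tested genes with a start within 50 kb of an opened region had a median log2 fold change of −0.11 (0.05 without controls 1 and 2), with 8 above all controls (2.92%) and 3 below (1.09%). The 307 genes near a closed region had a median of 0.00 (−0.08 without controls 1 and 2), with 5 above and 5 below (1.63% each). Over all genes these shares were 2.64% and 1.25%. Within 10 kb the medians were −0.17 and 0.03, over 138 and 144 genes.

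Single regions lay on both sides of the RNA difference. Among lower genes, Rapgef3 had an opened region in its first intron (chr15:97766957-97767461) 457 bases from a start site, and Ahnak had one (chr19:8984057-8985317) in intergenic sequence, at −4597 bases from its start. Elf4, lower as well, had a closed region in its last exon, exon 9 (chrX:48414542-48415042), Lpl had one in intergenic sequence, at −2595 bases from its start (chr8:68877471-68878450), and Tnfaip3 had one in intron 1 (chr10:19008473-19009237). Among higher genes, Slc19a2 had an opened region in intron 3 (chr1:164261160-164262464), while Mitf had a closed region in intron 1 (chr6:97867635-97868867), 61193 bases from the start site and so outside that 50 kb limit, and Acot7 had a closed one in intron 4 (chr4:152228159-152229406). Sftpd, the surfactant protein D gene, had a closed region in its first intron (chr14:41184676-41185461), with RNA at 1872, 1872, 1667, 1930.0 and 1776 CPM in Yap deleted libraries 1 to 5, against 969, 906, 1212 and 2136 CPM in controls 1 to 4 and overlapping groups. Annotations and distances are those of the authors' deposited lists.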

How the data were processed

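Polyadenylated RNA was sequenced from EPCAM-selected lung cells; the groups follow the sample titles and genotypes. Tools in the submitters' processing notes are Bowtie2, Cufflinks, DESeq, HOMER and Trim Galore, with the build mm10 and no versions or roles. Per the file headers, the authors deposited raw counts per gene symbol for 23478 rows (27 names turned into dates by a spreadsheet, left out of the named genes, and 2 repeated names). No label states a stranded count, so overlapping genes cannot be told apart. The authors' deposited region lists give a score per peak, used here only as positions, with distances per the file headers.

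Counts were tested with edgeR 4.0.16 (R 4.3.3): TMM scaling, filterByExpr, robust quasi-likelihood test of 5 Yap deleted against 4 control libraries, two-sided, Benjamini-Hochberg adjusted over 15818 genes, threshold 0.05. Depth was 31947748 to 42924739 counts; intervals are SE of the log2 fold change. Yap1 was also tested by exact permutation. Alternatives were RLE scaling, no filter, no robust moderation, DESeq2 1.42.0, limma-voom 3.58.1, a replicate block, sex read from Xist (above 50 CPM), leaving out each library, and leaving out controls 1 and 2. Genes were named by rule: a panel of 30, the called gene, the 12 smallest p per direction without overlap at 4 CPM or more, the same with steady controls, and 3 per gene list. These are the 155 named genes. Other genes with values in the text, such as Gdf15, Ccng1, Aen, Bax, Mdm2, Fjx1, Etv5, Mvd, Gpd1, Ctsb, Atp6v0d1, Sdhb, Bmp1 and Sema3f, were not picked by the rule. They were not part of the checks of sign and of libraries far from their group. The comparison and the 36 gene lists (782 of 790 entries found) were chosen with earlier results of these data known. Lists are described by counts and medians, with no test. Gene positions and promoter windows are RefSeq's for GRCm38.p6, matched by symbol (99.3% of rows). The pipeline was tested on simulated data.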

Additional observations from a re-analysis of the deposited data

Results flagged for a closer look

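Of 310 groups examined over 155 named genes, 16 held a library far from the others of its group; chance flags about 1 in 20 groups. Control 2 held 7 of them, all as the highest control: Esr1 at 87.1 CPM, the mesothelial factor Wt1 at 18.3 CPM, the complement genes C1qb at 37.9 CPM and C1qc at 34.1 CPM, and the neutrophil genes S100a8 at 202 CPM, S100a9 at 401 CPM and Ngp at 111 CPM. Yap deleted library 4 was the highest of its group for the ciliary genes Rsph4a at 85.8 CPM and Rsph1 at 53.5 CPM, for the secreted iron-binding protein Ltf at 43.3 CPM, and for the transcription factors Fosl2 at 120.5 CPM and Runx2 at 3.12 CPM. The same library was the lowest of its group for Ifit2 at 7.19 CPM and for the integrin gene Itgb1 at 434 CPM. Yap deleted library 1 stood apart at the AT1 gene Hopx with 626 CPM, and Yap deleted library 5 at Klf6 with 197 CPM.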

How the results depend on the processing

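The number of genes called higher was 181 with DESeq2 and 0 with limma-voom, with the replicate block and with sex as a covariate, and that of genes called lower was 611 with DESeq2. Leaving out 1 library at a time gave 0 to 2 higher and 0 to 2 lower calls. Genes at an unadjusted p under 0.05 numbered 399 higher and 597 lower without controls 1 and 2, and 768 (limma-voom) and 766 (replicate block) lower; leaving out 1 library gave 463 to 1555 higher and 748 to 2366 lower. Genes without overlap numbered 772 above (4.8%) and 927 below (5.77%) without controls 1 and 2, and 366 to 946 above and 245 to 1092 below with 1 library left out. In these fits fewer libraries must be cleared and the genes tested can differ. Their counts are therefore not comparable with the 418 above (2.64%) and 198 below (1.25%) of all 9 libraries. The Yap1 difference ranged from −0.94 to −0.65 (exact permutation p 0.0179 to 0.0571). Apart from the number of libraries that must be cleared, the cause of these shifts was not tested. Replicate numbers are shared by the groups but do not pair the samples: same-numbered libraries correlated at −0.26, 0.47, 0.15 and 0.36, and the replicate block left 0 calls, with Trim12a at an adjusted p of 0.449 in edgeR. Sex as a covariate gave Trim12a an adjusted p of 0.0570, and DESeq2 gave 3.76e-31. Of 155 named genes, 133 had 1 sign in every alternative and 22 took the opposite sign in at least 1; of 36 list medians, 20 had 1 sign throughout.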

Other observations

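FGF and ERK pathway genes had a log2 fold change above 0 in 13 of 19, with a median of 0.16 (0.34 without controls 1 and 2). Their summed level was 4055 to 4281 CPM in Yap deleted libraries, against 3194, 2464, 3295 and 3923 CPM in controls 1 to 4. Dusp4, an ERK phosphatase, had 95.4, 93.4, 106, 169.8 and 180.0 CPM in Yap deleted libraries, against 43.7, 44.4, 66.3 and 121 CPM in controls, with control 4 inside the Yap deleted range. The ligand gene Dll1 of the Notch pathway had 2.76, 3.19, 3.13, 3.35 and 3.24 CPM in Yap deleted libraries, against 24.3, 25.4, 4.64 and 4.13 CPM in controls, below all controls but with controls 1 and 2 far above the rest, as for the endothelial markers. Tcf7l2, a Wnt transcription factor, had 15.2, 18.4, 17.99, 15.5 and 15.6 CPM in Yap deleted libraries, against 32.5, 42.7, 20.7 and 20.1 CPM in controls, also below all controls. Pdia6, a disulphide isomerase of the endoplasmic reticulum, had 318, 338, 236, 225 and 212 CPM in Yap deleted libraries, against 169, 199.8, 195 and 205 CPM in controls, above all controls. Cd74, the invariant chain of MHC class II, had 1785, 1541, 859, 1036 and 348 CPM in Yap deleted libraries, against 698, 1008, 986 and 579.5 CPM in controls, with overlapping groups and the widest range inside the Yap deleted group. The medians of the Notch list were −0.51 with all controls and −0.27 without controls 1 and 2, and those of the Wnt list were 0.02 and −0.04.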
